A study of Mus musculus with 5 samples.

Results

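The 32 genes described here encode proteins of the extracellular matrix: 8 laminin chains, 6 other basement membrane components, 8 fibrillar and beaded-filament collagen chains, 6 latent TGF-beta binding proteins (LTBPs) and microfibril genes, and 4 adhesive or matricellular genes. They were taken by name from a table of 39179 genes, and all 32 matched a single Ensembl identifier each. The list was drawn up with KO and control values of these same libraries in view, so every KO against control value of its members below is a description and not a test. Of the 32, 25 had enough counts to be fitted.

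The KO group holds 2 libraries from embryos with the genotype Csnk2b fl/fl Vav+/Cre, and the control group holds 3 from embryos with the genotype Csnk2b+/+ Vav+/Cre. Both groups are of the C57BL/6 strain, both carry the Cre transgene, and both were collected 14.5 days after conception and left untreated. Csnk2b encodes the regulatory beta subunit of protein kinase CK2, and the Vav1 promoter drives Cre in blood-forming cells, so the non-haematopoietic cells of the liver are not the intended target of the deletion. Poly(A) RNA was sequenced from fetal liver cells sorted for TER119, a surface antigen of maturing erythroid cells. The labels number the embryos and do not say whether a library is 1 embryo or a pool, so the errors measure the spread between these libraries.

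The extracellular matrix is the protein meshwork around cells. Laminins are trimers of an alpha, a beta and a gamma chain, and with type IV collagen, nidogen, perlecan and agrin they build the basement membrane, a thin sheet under epithelia and endothelia. Fibrillar collagens form the tensile fibres of connective tissue and are made mainly by mesenchymal cells such as fibroblasts. Fibrillins, fibulins and LTBPs form microfibrils, which also hold latent TGF-beta outside cells. In the fetal liver, erythroid cells mature in contact with macrophages, stroma and matrix, and they lose their grip on fibronectin as they mature.

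Totals ranged from 13187094 to 15366021 counts per library. Levels are in CPM, counts scaled to library size with the TMM factor, and 1 CPM stood for 13 to 15.5 counts. Csnk2b was at 112 and 95.6 CPM in KO and at 186, 186 and 169 CPM in control libraries, a log2 fold change of -0.80 ± 0.09 (SE; edgeR adjusted p = 0.0018). Erythroid markers were abundant in every library, with 13 genes summing to 63600 to 81600 CPM in KO and 70800 to 86800 CPM in control libraries. Log2 CPM correlated across genes at 0.992 between the KO libraries, at 0.996 to 0.997 between controls and at 0.985 to 0.988 between a KO and a control library.

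By the mean over all 5 libraries, 9 of the 32 genes stood at 10 CPM or more, 15 at 1 to 10 CPM and 8 under 1 CPM. The 9 in the top band were Agrn, Thbs1, Col5a1, Fn1, Lamc1, Hspg2, Col4a2, Col4a1 and Ltbp2. The 8 in the bottom band were Lama1, Lama2, Lama3, Lama4, Col6a1, Col6a2, Ltbp3 and Ltbp4, and of these only Lama4 was fitted. The bands describe levels and not cell types. Bulk RNA from sorted cells does not show which cells in the sort hold a transcript, so stroma-derived and erythroid matrix transcripts could not be separated gene by gene, and fewer cells of a type cannot be told apart from less RNA per cell.

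**Figure D1:**
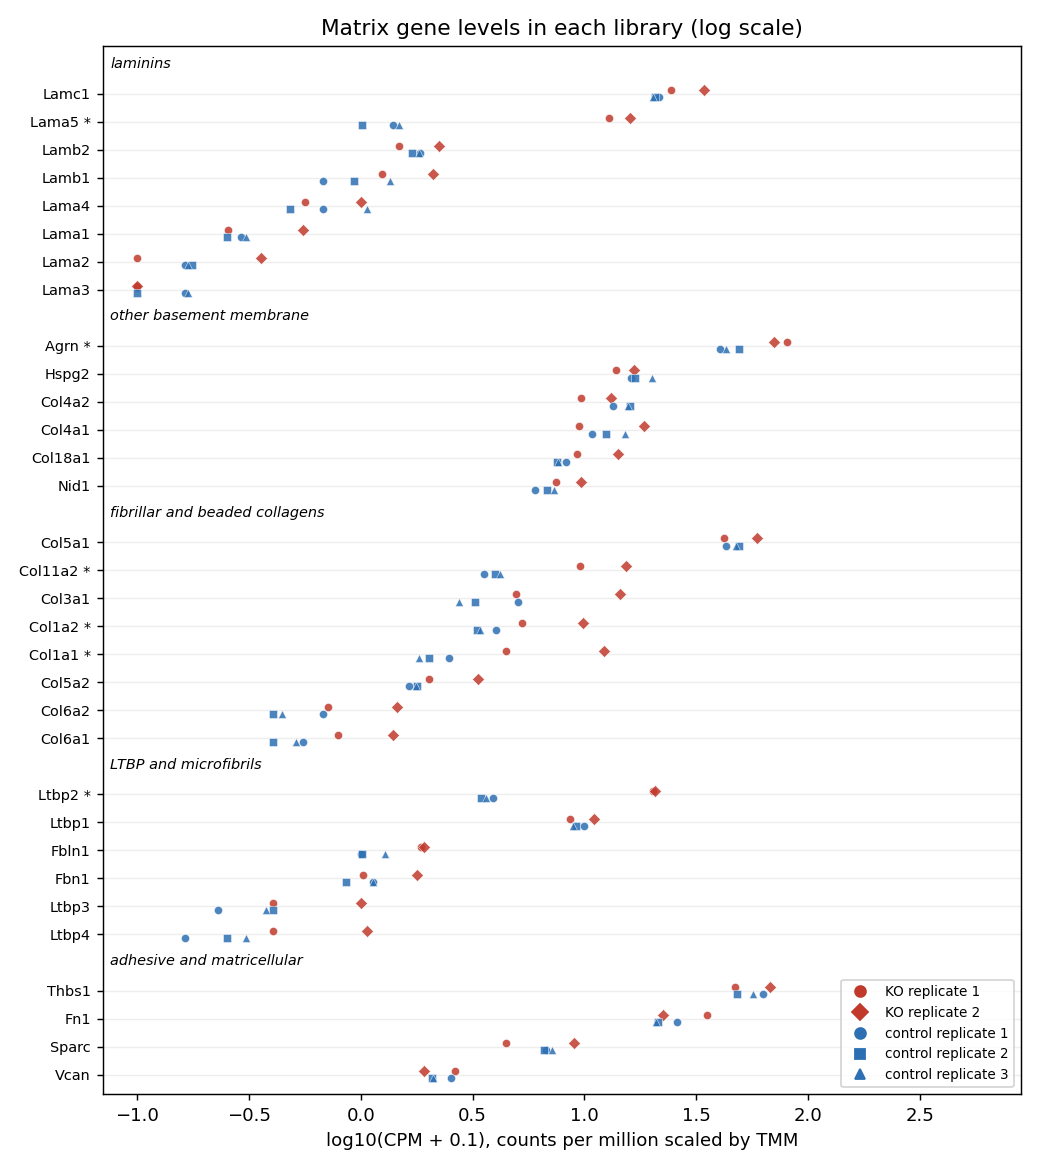
Level of each of the 32 matrix genes in each library, as log10(CPM + 0.1) on the horizontal axis, with KO libraries in red above control libraries in blue and genes grouped by role. Asterisks mark the 6 genes with an edgeR adjusted p below 0.05 over all genes fitted. The red points of Lama5 and Ltbp2 lie far to the right of the blue ones, and those of Col1a1 and Col3a1 lie apart from each other. For Thbs1, Sparc and Col5a1 the red points lie on either side of all blue ones.

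Set against each other per kilobase of annotated exon, the matrix genes spanned a wide range of levels. Thbs1, the gene for the adhesive glycoprotein thrombospondin 1, was the highest, with means of 9.44 CPM per kb in KO and 9.19 CPM per kb in control libraries. Agrn followed with 8.12 CPM per kb in KO and 4.74 in control libraries. Col5a1, a chain of the type V collagen that sets the width of collagen fibrils, had 5.92 CPM per kb in KO and 5.47 in control libraries. Lamc1, the common gamma chain of most laminins, and Fn1, fibronectin, came next. With the longest annotated transcript in place of all exons, no gene moved by more than 3 places in this order.

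Between KO and control libraries, 6 of the 25 genes fitted had an edgeR adjusted p below 0.05 over all genes, and all 6 were higher in KO: Lama5, Ltbp2, Col1a1, Col11a2, Col1a2 and Agrn. None of the members was lower past that threshold. Over all 13000 genes fitted, 5.15% were called higher and 1.83% lower, 6.98% in all. Since this contrast was in view when the list was drawn up, nothing is read from the members' share. The median log2 fold change of the 25 was 0.48, and that of all genes fitted was 0.015. Both KO libraries lay above all 3 controls for 11 of the 25, a position held by 21.9% of all genes fitted, and below all 3 for 1, a position held by 19.3%.

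**Figure D2:**
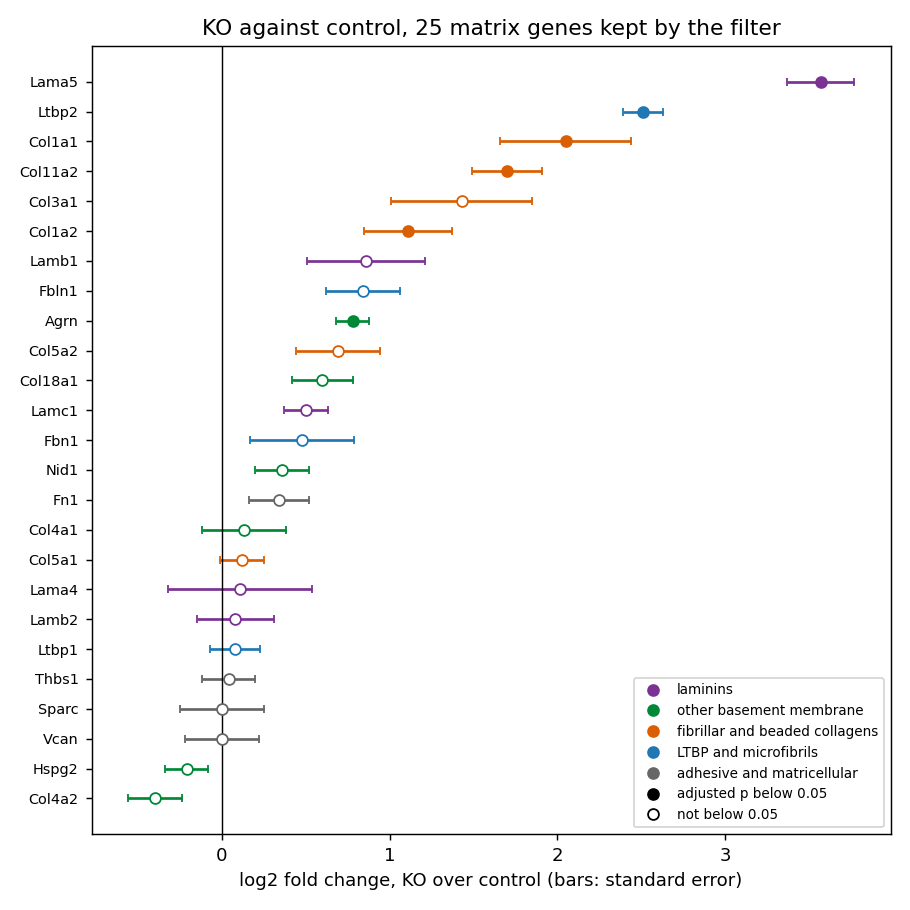
Log2 fold change of KO over control for the 25 matrix genes fitted, with bars of 1 standard error and colours for the role. Filled points have an edgeR adjusted p below 0.05 over all 13000 genes. Lama5 at 3.57 and Ltbp2 at 2.51 head the list, and the adhesive and matricellular genes lie near 0.

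The laminins include the gene with the largest difference on the list. Lama5 encodes the alpha5 chain, part of vessel and epithelial basement membranes. It stood at 12.8 and 15.9 CPM in KO and at 1.29, 0.915 and 1.39 CPM in control libraries, resting on 167 and 246 counts in KO and on 20, 12 and 20 counts in control libraries. The KO libraries lay close together and far above the controls: the means were 14.4 CPM ± 2.20 (SD, n = 2) in KO and 1.20 CPM ± 0.249 (SD, n = 3) in control libraries. The log2 fold change was 3.57 ± 0.20 (SE), or 11.9-fold, and Lama5 was called in all 12 fits that were run, including each that left out a library.

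The partner chains of laminin alpha5 did not pass the threshold. Lamc1 had 24.4 and 34.0 CPM in KO and 21.5, 20.7 and 20.1 CPM in control libraries, a log2 fold change of 0.50 ± 0.13 (SE). Both KO libraries were above the controls, and Lamc1 missed the threshold in edgeR and passed it in DESeq2. Lamb1, a beta chain, had 1.15 and 2.01 CPM in KO and 0.579, 0.838 and 1.25 CPM in control libraries. The other beta chain gene, Lamb2, had 1.38 and 2.14 CPM in KO and 1.74, 1.60 and 1.73 CPM in control libraries. For Lamb1 the groups overlapped, and for Lamb2 the KO libraries lay on either side of all controls. Per kilobase of exon, Lama5 averaged 1.26 CPM in KO and 0.105 CPM in control libraries, below Lamc1 in KO (3.53 CPM per kb) and in control libraries (2.51 CPM per kb) and above both beta chains in KO alone.

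The remaining alpha chains were near the limit of detection. Lama4, an alpha chain of vessel walls, had 0.461 and 0.907 CPM in KO and 0.579, 0.381 and 0.971 CPM in control libraries. Lama1, the alpha chain of early embryonic basement membranes, had 2 and 7 counts in KO and 3, 2 and 3 counts in control libraries. Lama2, the alpha chain of muscle and nerve, had 0 and 4 counts in KO and 1 count in each control library. Lama3, an alpha chain of epithelia, had 0 counts in both KO libraries and 1, 0 and 1 counts in control libraries. A count of 0 allows a level of up to 3 counts, which is 0.231 and 0.194 CPM in KO replicates 1 and 2. Differences of these 4 genes were not detectable at this depth.

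Among the other basement membrane genes, Agrn was called higher. It encodes agrin, a heparan sulfate proteoglycan best known for clustering acetylcholine receptors at the neuromuscular junction. Agrn had 80.5 and 70.2 CPM in KO and 40.2, 49.0 and 42.8 CPM in control libraries, with no overlap. The log2 fold change was 0.78 ± 0.10 (SE), or 1.71-fold, and Agrn was called in all 12 fits. Agrn lies on the minus strand of chromosome 4 (156165290 to 156197488 in mm10), and Isg15, on the same strand, ends 1936 bases upstream of its start. Isg15 had 343 and 101 CPM in KO and 2.44, 5.95 and 3.54 CPM in control libraries. Its part in the counts of Agrn was not tested.

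Type IV collagen, the network-forming collagen of basement membranes, showed a different picture. Col4a1 had 9.38 and 18.3 CPM in KO and 10.7, 12.4 and 15.1 CPM in control libraries, so the KO libraries lay on either side of all controls. Col4a2 had 9.53 and 13 CPM in KO and 13.3, 15.9 and 15.5 CPM in control libraries, with both KO libraries below the controls and a log2 fold change of -0.40 ± 0.16 (SE) that missed the threshold. The genes of this pair face away from each other on chromosome 8, and their annotated RefSeq starts are 21 bases apart and overlap by 22 bases. The stretch shared by both promoter windows, chr8:11312777-11312854 (plus strand, GRCm38.p6, from RefSeq), is shown because both chains are read from it in opposite directions. It is 78 bases long with 73.1% G and C. Capitals mark its 1 GC box, GGGCGG on either strand.
Col4a1 and Col4a2 shared start: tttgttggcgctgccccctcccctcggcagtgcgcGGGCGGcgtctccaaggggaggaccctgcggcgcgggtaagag

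Col18a1, which encodes the precursor of endostatin, had 9.15 and 14.1 CPM in KO and 8.17, 7.47 and 7.49 CPM in control libraries, a log2 fold change of 0.60 ± 0.18 (SE). Nid1, the linker protein nidogen 1, had 7.38 and 9.53 CPM in KO and 5.92, 6.71 and 7.21 CPM in control libraries. In both genes the KO libraries lay above the controls without passing the threshold. Hspg2, which encodes perlecan, had 13.8 and 16.5 CPM in KO and 16.0, 16.8 and 19.9 CPM in control libraries, and its groups overlapped.

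Type I collagen, the main fibre of connective tissue, is built from the chains Col1a1 and Col1a2, and both were called higher, with a wide gap between the KO libraries. Col1a1 had 4.38 and 12.1 CPM in KO and 2.38, 1.91 and 1.73 CPM in control libraries, a log2 fold change of 2.05 ± 0.39 (SE), or 4.14-fold. Col1a2 had 5.15 and 9.78 CPM in KO and 3.92, 3.20 and 3.33 CPM in control libraries, a log2 fold change of 1.11 ± 0.26 (SE), or 2.16-fold. Neither group pair overlapped, but KO replicate 1 lay much nearer to the controls than KO replicate 2 did. Without KO replicate 2 the log2 fold changes were 1.11 for Col1a1 and 0.55 for Col1a2, and without KO replicate 1 they were 2.56 and 1.46. Both genes missed the threshold without any 1 of the control libraries, and Col1a2 also without KO replicate 2.

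Col3a1, the type III chain that runs alongside type I collagen in soft tissue, had 4.84 and 14.3 CPM in KO and 4.95, 3.13 and 2.64 CPM in control libraries. KO replicate 1 fell within the control range and KO replicate 2 stood far above it, so the log2 fold change of 1.43 ± 0.42 (SE) missed the threshold, and it was 0.42 without KO replicate 2. Col5a2, which pairs with Col5a1 in type V collagen, had 1.92 and 3.24 CPM in KO and 1.54, 1.68 and 1.66 CPM in control libraries. Col5a1 itself had 41.8 and 58.8 CPM in KO and 43.0, 48.9 and 47.4 CPM in control libraries. Its KO libraries lay on either side of all controls. The fibrillar chain with the highest level per kilobase thus had a log2 fold change of 0.12 ± 0.13 (SE).

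Col6a1 and Col6a2, chains of the beaded-filament type VI collagen, had too few counts to be fitted. Col6a1 had 9 and 20 counts in KO and 7, 4 and 6 counts in control libraries. Col6a2 had 8 and 21 counts in KO and 9, 4 and 5 counts in control libraries. In CPM the KO libraries were above the controls for both, and KO replicate 2 was the higher of them.

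Col11a2, a chain of the type XI collagen of cartilage, was called higher in all 12 fits. It had 9.45 and 15.2 CPM in KO and 3.47, 3.89 and 4.09 CPM in control libraries, with no overlap. The log2 fold change was 1.70 ± 0.21 (SE), or 3.24-fold. Col11a2 lies on the plus strand of chromosome 17 (34039437 to 34066685 in mm10), 1.05 megabases from the targeted gene Csnk2b (35116196 to 35122053). The other members on chromosome 17 lie farther off, Lama1 at 32.6 and Ltbp1 at 39.9 megabases.

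Of the LTBP and microfibril genes, Ltbp2 stood apart. It encodes a microfibril protein that, unlike the other LTBPs, is not known to carry latent TGF-beta. Ltbp2 had 20.1 and 20.5 CPM in KO and 3.80, 3.35 and 3.54 CPM in control libraries, with means of 20.3 CPM ± 0.240 (SD, n = 2) in KO and 3.56 CPM ± 0.222 (SD, n = 3) in control libraries. The KO libraries were almost equal and far above the controls. The log2 fold change was 2.51 ± 0.12 (SE), or 5.68-fold, and Ltbp2 was called in all 12 fits. An antisense gene, D030025P21Rik, covers 764 bases of its exons, 9.34% of their length. D030025P21Rik had 14 and 33 counts in KO and 0 counts in each control library. No source used here states if strand was considered in counting, and reads from the shared bases cannot be assigned to either gene.

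Ltbp1, a carrier of latent TGF-beta, showed no such step. It had 8.53 and 11 CPM in KO and 9.91, 9.07 and 8.81 CPM in control libraries. Its KO libraries lay on either side of all controls. Ltbp3 had 4 and 14 counts in KO and 2, 4 and 4 counts in control libraries, and Ltbp4 had 4 and 15 counts in KO and 1, 2 and 3 counts in control libraries. Both carry latent TGF-beta in other tissues, and both were too low here to be fitted. In CPM the KO libraries were above all controls for both genes, so a step is neither shown nor excluded. Exons of Ltbp3 overlap a gene on the opposite strand, so its few counts are uncertain.

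Fbn1, fibrillin 1, the backbone of microfibrils, had 0.922 and 1.68 CPM in KO and 1.03, 0.762 and 1.04 CPM in control libraries. Fbln1, fibulin 1, had 1.77 and 1.81 CPM in KO and 0.901, 0.915 and 1.18 CPM in control libraries. For Fbln1 the groups did not overlap, and its log2 fold change of 0.84 ± 0.22 (SE) missed the threshold.

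None of the 4 adhesive and matricellular genes was called. Fn1, fibronectin, to which erythroid precursors bind through integrins, had 35.4 and 22.4 CPM in KO and 25.8, 21.3 and 20.9 CPM in control libraries. Thbs1 had 47.0 and 67.7 CPM in KO and 62.7, 47.9 and 56.8 CPM in control libraries. Sparc, a collagen-binding protein of bone and platelets, had 4.38 and 8.88 CPM in KO and 6.63, 6.48 and 7.07 CPM in control libraries. Vcan, the proteoglycan versican, had 2.54 and 1.81 CPM in KO and 2.44, 1.98 and 2.01 CPM in control libraries. In all 4 the groups overlapped, and for Thbs1, Sparc and Vcan the KO libraries lay on either side of all controls. Fn1 had a log2 fold change of 0.34 ± 0.18 (SE), which was larger without KO replicate 2.

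The promoters of the 4 genes called in every fit are shown to let them be set side by side, since their calls held in every fit. Each runs from 250 bases before to 50 bases after the annotated RefSeq start, 5′ to 3′ on the gene's strand, in GRCm38.p6. Capitals mark GC boxes, GGGCGG on either strand, the motif of Sp1-type factors, and neighbouring matches may share a base. The windows are chr2:180225810-180226109 (minus strand) for Lama5, chr12:84876442-84876741 (minus) for Ltbp2, chr4:156197439-156197738 (minus, the upstream of 2 listed starts) for Agrn and chr17:34038888-34039187 (plus) for Col11a2.
Lama5: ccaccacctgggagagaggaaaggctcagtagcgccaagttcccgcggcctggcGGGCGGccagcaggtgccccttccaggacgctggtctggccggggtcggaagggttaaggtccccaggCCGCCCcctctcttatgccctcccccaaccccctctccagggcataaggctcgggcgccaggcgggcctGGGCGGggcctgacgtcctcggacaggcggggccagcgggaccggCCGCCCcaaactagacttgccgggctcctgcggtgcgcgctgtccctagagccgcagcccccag
Ltbp2: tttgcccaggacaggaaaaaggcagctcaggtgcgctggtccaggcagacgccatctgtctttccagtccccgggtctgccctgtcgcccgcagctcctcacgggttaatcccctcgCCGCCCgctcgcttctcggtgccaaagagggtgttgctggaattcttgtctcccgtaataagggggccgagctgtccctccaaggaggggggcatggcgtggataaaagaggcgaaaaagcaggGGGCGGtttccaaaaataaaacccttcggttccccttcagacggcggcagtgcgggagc
Agrn: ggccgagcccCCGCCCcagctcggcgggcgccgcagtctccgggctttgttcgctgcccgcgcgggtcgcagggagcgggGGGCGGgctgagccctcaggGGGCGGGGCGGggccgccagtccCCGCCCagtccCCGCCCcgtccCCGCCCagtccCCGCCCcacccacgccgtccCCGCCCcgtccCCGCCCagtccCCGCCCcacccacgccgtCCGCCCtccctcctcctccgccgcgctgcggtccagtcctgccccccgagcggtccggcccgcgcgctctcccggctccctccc
Col11a2: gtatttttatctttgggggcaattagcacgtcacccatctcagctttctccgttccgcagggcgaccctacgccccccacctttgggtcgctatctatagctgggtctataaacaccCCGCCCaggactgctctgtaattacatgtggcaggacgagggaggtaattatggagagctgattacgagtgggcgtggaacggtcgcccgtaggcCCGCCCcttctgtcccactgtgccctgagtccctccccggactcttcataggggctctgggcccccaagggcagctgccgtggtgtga

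The windows held 4 GC boxes in Lama5, 2 in Ltbp2, 12 in Agrn and 2 in Col11a2, and G and C made up 72.7% of the Lama5, 61% of the Ltbp2, 83.3% of the Agrn and 59% of the Col11a2 window. The RefSeq table held a promoter for 24 of the 32 genes, of which 17 held a GC box, against 35.9% of all 27025 promoters. Of the 24, 1 held the GATA motif AGATAA, that of Col11a2, against 11.4% of all promoters. The AP-1 motif TGANTCA was found in 2 of 24 against 7.92%, TATAAA in 2 of 24 against 14.2%, and the amino acid response element TGATGNAA in 0 of 24 against 4.06%. All motifs were searched on both strands. A match is a run of letters and not a bound site.

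The KO libraries also differed from each other on the list. KO replicate 2 exceeded KO replicate 1 in 22 of the 25 genes fitted, where it did so in 50.6% of all genes fitted, and Agrn, Fn1 and Vcan were the exceptions. The excess was at least 1.5-fold in 12 of the 25, against 5.18% of all genes fitted. Of all 32 genes, 25 had their highest level in KO replicate 2. Among the 25 fitted that held for 19, where 32.5% of all genes fitted did. All 8 fibrillar and beaded collagens were highest in KO replicate 2, as were all 6 LTBP and microfibril genes and 6 of 8 laminins. The same held for 3 of 6 other basement membrane genes and 2 of 4 adhesive and matricellular genes. These counts describe 1 library against another, not the genotypes. The values of these libraries were in view when the list was drawn up, so nothing is read from these shares.

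The ratio of KO replicate 2 to KO replicate 1 was 2.96 for Col3a1 (95% exact binomial interval 2.23 to 3.98), 2.77 for Col1a1 (2.05 to 3.79) and 1.90 for Col1a2 (1.42 to 2.57). For the basement membrane gene Col4a1 it was 1.95 (1.57 to 2.43), and for Sparc it was 2.03 (1.48 to 2.81). Genes that were much higher in KO than in control libraries could be nearly level between the KO libraries. The ratio was 1.02 for Ltbp2 (0.861 to 1.20) and 1.24 for Lama5 (1.02 to 1.52). These intervals come from the 2 counts alone, so they cover counting error and not the spread between libraries. The reads carry no molecular identifiers, so amplified copies could not be told apart and the intervals may be too narrow.

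**Figure D3:**
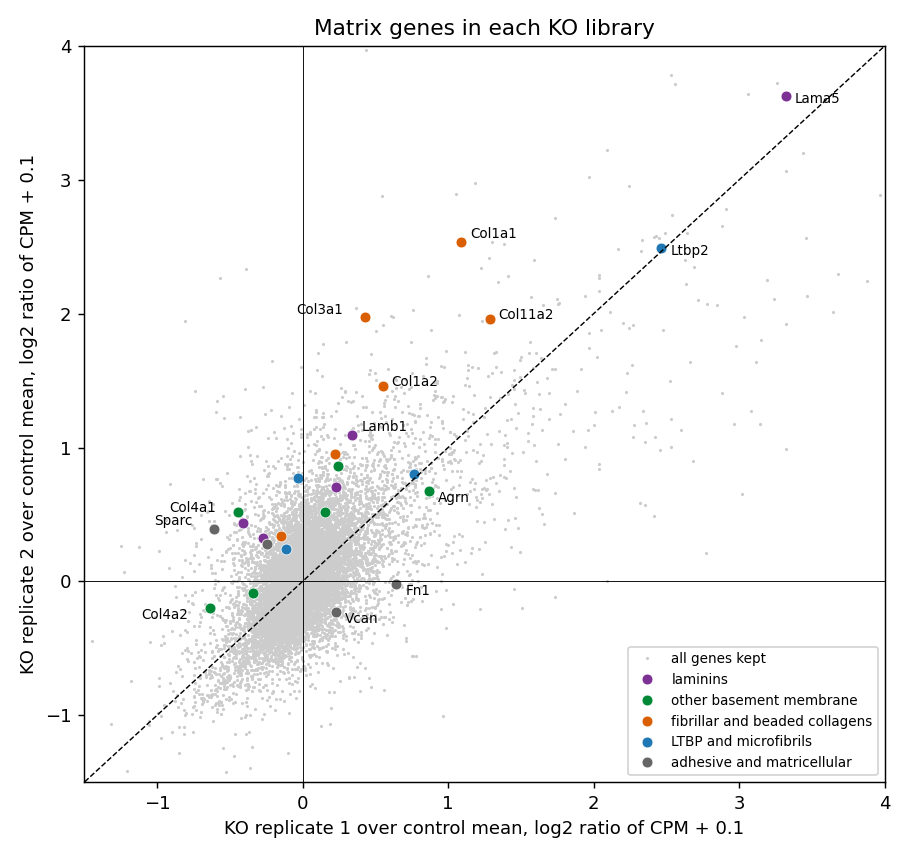
Each of the 25 matrix genes fitted, as the log2 ratio of CPM + 0.1 to the control mean in KO replicate 1 (horizontal) and KO replicate 2 (vertical), over all genes fitted in grey, with axes limited to the range of the matrix genes. Points on the dashed line are equal in both KO libraries. Of the matrix genes 22 lie above the line, Ltbp2 almost on it, and Agrn, Fn1 and Vcan lie below it.

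Markers of other cell types were summed to show what else the sort held. Leaving out Reln, the mesenchymal and stellate list summed to 8.30 and 8.94 CPM in KO and to 8.11 to 10.3 CPM in control libraries over 15 genes, with none called and Pdpn at 0 in every library. Pdgfra, a receptor of fibroblasts, had 0.154 and 0.518 CPM in KO and 0.450, 0.381 and 0.208 CPM in control libraries. Dcn and Lum, proteoglycans of fibroblasts, stayed at or below 0.518 and 0.322 CPM in every library. Other markers of the list were higher: Pdgfrb, a receptor of stellate cells and pericytes, had 3 and 2.33 CPM in KO and 3.28, 2.67 and 2.84 CPM in control libraries, Hgf ranged from 1.49 to 2.06 CPM over all libraries and Cxcl12 from 1.04 to 1.93 CPM. In KO replicate 2, 6 of the 15 genes had their highest level, beside 32.5% of all genes fitted. They were Pdgfra, Des, Dcn, Acta2, Tcf21 and Ngfr, each at or below 0.518 CPM in every library. Nt5e had 0.845 and 0.648 CPM in KO and 0.579, 0.534 and 0.347 CPM in control libraries. The part of mesenchymal cells in the collagens was not tested. Reln, which stellate cells also express, had 93.4 and 42.3 CPM in KO and 30.5, 28.1 and 30.9 CPM in control libraries, highest in the KO library in which these collagens were lower. With Reln the list summed to 102 and 51.3 CPM in KO and to 36.7 to 40.8 CPM in control libraries.

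Megakaryocytes and platelets store Thbs1 and Sparc. Their 12 markers summed to 147 and 199 CPM in KO and to 137 to 150 CPM in control libraries, with none called of 10 fitted. Pf4, a platelet chemokine, had 8.38 and 20.9 CPM in KO and 10.4, 9.91 and 9.29 CPM in control libraries, and Itga2b, the platelet integrin chain, had 33.8 and 57.5 CPM in KO and 33.0, 31.3 and 28.7 CPM in control libraries. Of the 12 markers, 6 were highest in KO replicate 2, as were Col4a1, Sparc and Thbs1. Of all genes fitted, 32.5% were highest in that library. So were 6 of 16 mesenchymal and stellate, 4 of 13 endothelial and 2 of 11 hepatocyte markers. The part of megakaryocytes and platelets in Col4a1, Sparc and Thbs1 was not tested.

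Endothelial markers, 13 genes, summed to 84.4 and 105 CPM in KO and to 90.6 to 109 CPM in control libraries. Of 12 fitted only Plvap, a protein of vessel fenestrae, was called, with a log2 fold change of 0.57 ± 0.12 (SE; edgeR adjusted p = 0.028). Hepatocyte markers summed to 280 and 330 CPM in KO and to 237 to 377 CPM in control libraries, with none of 11 called. Macrophage markers summed lower in KO, at 98.9 and 93.6 CPM in KO and 125 to 138 CPM in control libraries. Of 11 fitted, 5 were called lower. Over all genes fitted, 5.15% were called higher and 1.83% lower. Mesothelial and biliary markers summed to under 1 CPM in every library, with Krt19 and Msln at 0, and granulocyte, mast cell and lymphoid markers had no member called. The endothelial and hepatocyte sums were also larger in KO replicate 2 than in the other KO library, and their part in the matrix genes was not tested.

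**Figure D4:**
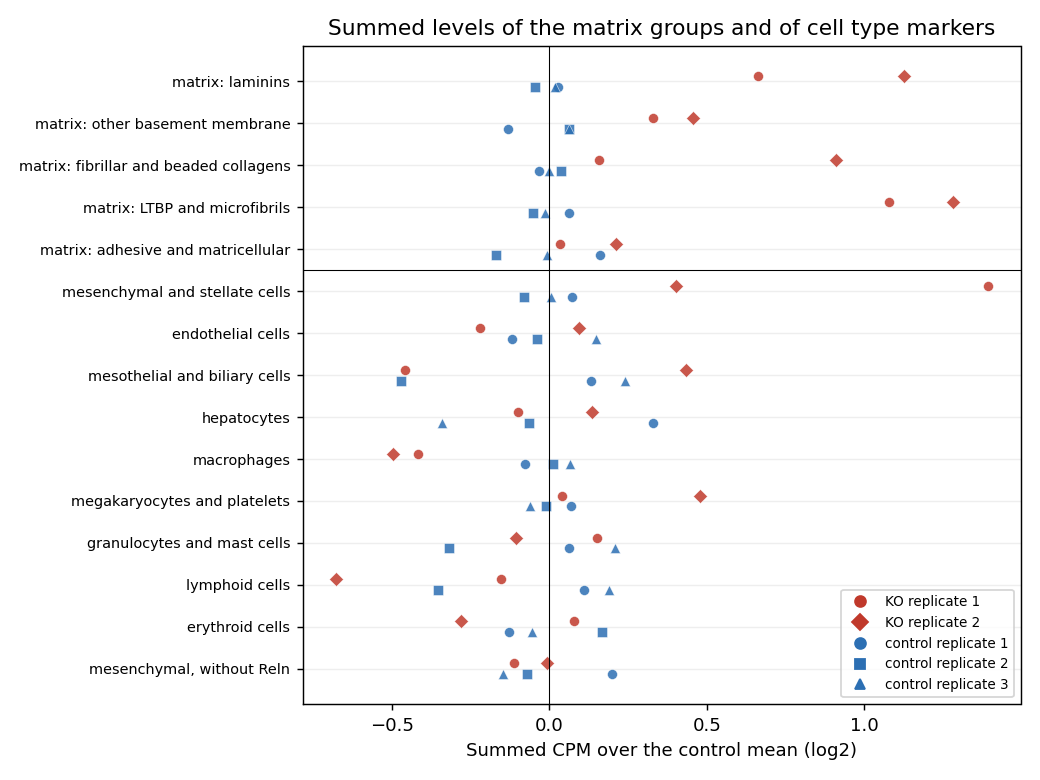
Summed CPM of each matrix group (upper rows) and each cell type marker list (lower rows) in each library, as the log2 ratio to the control mean. KO libraries are red and control libraries blue. The laminin, other basement membrane and LTBP sums lie to the right of the controls in both KO libraries, and the fibrillar collagen sum mainly in KO replicate 2. Single called genes weigh heavily in these sums. In KO, Lama5 gave 12.8 and 15.9 of 40.4 and 55.7 CPM in the laminin sum. Agrn gave 80.5 and 70.2 of 130 and 142 CPM in the other basement membrane sum. Ltbp2 gave 20.1 and 20.5 of 32 and 36.8 CPM in the LTBP sum. The mesenchymal sum without Reln lies among the controls.

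The rest of the matrix pathway was read from 6 lists of genes that are not members, with the edgeR adjusted p over all 13000 genes. These lists too were drawn up with earlier results of these libraries known, so their counts are a description. Of 241 such genes 123 were fitted, of which 11 were higher and 1 lower in KO past the threshold and 111 did not pass, beside 5.15% and 1.83% of all genes. Their median log2 fold change was 0.11. Of the 11, 4 had no control library at the filter's minimum of 10 counts at the median library size, so they were fitted only through the KO libraries in which they were high. Col9a3, Matn2 and P3h3 are among these, and their values are given without a test. Of the other 117 genes fitted, 7 rose. Among these and Cd36, Ski and Cd36 passed in each fit that left out 1 library. The rest missed the threshold in at least 3 of those 5 fits, and Mmp17, Adamts10 and Acvr2b passed in only 1.

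Of 36 other laminin and collagen genes 5 were fitted. Col9a3 was higher in KO without a control library at the filter's minimum, and the other 4 did not pass the threshold. These 4 were named after their values were seen. Col6a3, also of type VI collagen, had 1.15 and 1.94 CPM in KO and 0.836, 0.686 and 0.416 CPM in control libraries. Its log2 fold change was 1.27 ± 0.34 (SE; edgeR adjusted p = 0.059). Log2 fold changes were 0.32 for Col7a1, -0.21 for Col14a1 and -0.18 for Col20a1. Col9a3 encodes a chain of the cartilage collagen type IX, which coats fibrils that hold type XI collagen. It had 1.69 and 2.14 CPM in KO and 0.386, 0.305 and 0.208 CPM in control libraries, a log2 fold change of 2.64 ± 0.30 (SE). Its control values rest on 6, 4 and 3 counts. Col9a3 lies 0.372 megabases from Lama5 on chromosome 2.

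Of 17 other matrix glycoproteins and proteoglycans fitted, Reln rose, and Matn2 was higher in KO without a control library at the filter's minimum. Matn2, matrilin 2, is a filament-forming adaptor and had 1.08 and 1.10 CPM in KO and 0.257, 0.229 and 0.347 CPM in control libraries (log2 fold change 1.94 ± 0.30, SE), resting on 14 and 17 counts in KO and on 4, 3 and 5 counts in control libraries. Reln, the secreted glycoprotein reelin, had a log2 fold change of 1.18 ± 0.26 (SE; edgeR adjusted p = 0.03). Reln missed the threshold without any 1 control library, and with DESeq2 and limma-voom. Leaving out KO replicate 2 gave a log2 fold change of 1.64, and leaving out the other KO library gave 0.48.

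Of 26 integrins and other matrix receptors fitted, Cd36 fell and none rose. Cd36, a receptor for thrombospondin and fatty acids on macrophages, platelets and erythroid precursors, had 20.4 and 17.8 CPM in KO and 31.5, 31.6 and 35.6 CPM in control libraries, with no overlap. Its log2 fold change was -0.79 ± 0.10 (SE; edgeR adjusted p = 0.0036). The macrophage marker Adgre1 stood beside it at 6.92 and 6.67 CPM in KO and 10.6, 11.2 and 10.8 CPM in control libraries, and the part of macrophages in Cd36 was not tested. Named after their values were seen, the fibronectin receptor chains Itga4 and Itgb1 averaged 559 and 217 CPM in KO and 719 and 226 CPM in control libraries and did not pass.

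Of 18 genes for collagen folding, modification and cross-linking fitted, Loxl3 rose, and P3h3 was higher in KO without a control library at the filter's minimum. P3h3, a collagen prolyl 3-hydroxylase, had 10 and 25 counts in KO and 3, 2 and 2 counts in control libraries (log2 fold change 2.85 ± 0.46, SE). Loxl3, a lysyl oxidase that cross-links collagen and elastin, had 5 and 3.76 CPM in KO and 2.19, 1.98 and 2.36 CPM in control libraries. Its log2 fold change was 0.99 ± 0.19 (SE; edgeR adjusted p = 0.018), and it missed the threshold without any 1 control library.

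Of 28 matrix proteases and inhibitors fitted, Mmp17 and Adamts10 rose. Mmp17, a membrane-anchored metalloprotease, had 1.46 and 2.66 CPM in KO and 0.836, 0.915 and 0.555 CPM in control libraries, a log2 fold change of 1.44 ± 0.32 (SE; edgeR adjusted p = 0.032). Adamts10, a protease bound to fibrillin microfibrils that lies within 0.5 megabases of Col11a2, had a log2 fold change of 0.58 ± 0.15 (SE; edgeR adjusted p = 0.049).

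Of 29 TGF-beta ligands, latency proteins, receptors and SMADs fitted, Ski, Bmpr1a and Acvr2b rose. Ski, a co-repressor of SMAD signalling, had 45.7 and 44.1 CPM in KO and 28.1, 30.0 and 31.1 CPM in control libraries (log2 fold change 0.60 ± 0.08, SE; edgeR adjusted p = 0.0041). Bmpr1a, a type I receptor for BMPs, had a log2 fold change of 0.94 ± 0.17 (SE; edgeR adjusted p = 0.015) and Acvr2b, a type II receptor for activins, one of 0.94 ± 0.23 (SE; edgeR adjusted p = 0.042). Tgfb1, the ligand that LTBPs can hold, was named after its values were seen. It averaged 108 CPM ± 6.53 (SD, n = 2) in KO and 112 CPM ± 4.85 (SD, n = 3) in control libraries and did not pass.

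**Figure D5:**
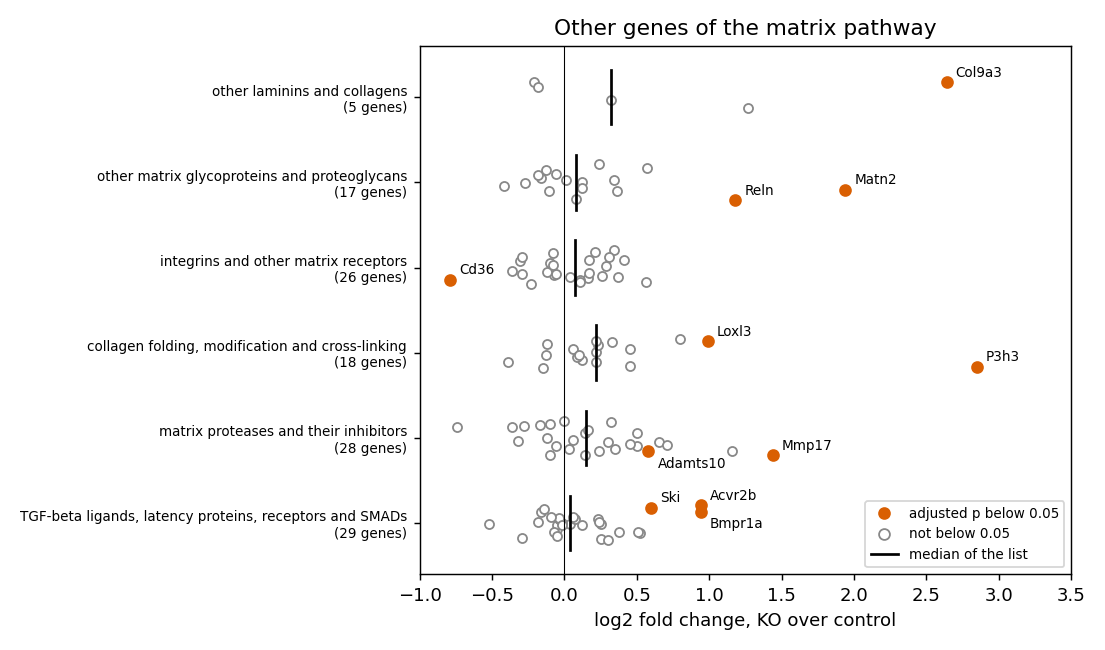
Log2 fold change of KO over control for the genes fitted in each of the 6 lists of other matrix pathway genes, with the median of each list as a bar. Filled, named points have an edgeR adjusted p below 0.05 over all 13000 genes. Col9a3, Matn2 and P3h3 were fitted only through the KO libraries in which they were high, so their filled points are not a test. Most genes lie near 0, the named genes other than Cd36 lie to the right and Cd36 lies to the left; 1 gene of the protease list is counted in its median and not drawn.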

How the data were processed

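The authors deposited whole-number counts per Ensembl gene for 5 libraries, not normalised; 39179 genes are listed and no column was left out. Reads were handled with cutadapt, STAR, Bowtie and HTSeq on mm10, per the submitters' processing notes. Versions, strand use and the treatment of multiply mapping reads are not stated in the sources here. Per the labels' protocols, TER119-stained cells were sorted and poly(A) RNA was read on an Ion Proton.

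Symbols, exon lengths and coordinates came from GENCODE M21 on GRCm38, the assembly mm10 names, and matched 37607 genes; promoters came from RefSeq. Counts were tested, KO over control, with the quasi-likelihood test of edgeR 4.0.16 (R 4.3.3): TMM scaling, filterByExpr with the group (10 counts at the median library size in 2 libraries; 13000 kept), group only, Benjamini-Hochberg over all genes kept, threshold 0.05, 3 residual degrees of freedom. CPM uses the TMM-scaled library size. Each standard error is the log2 fold change divided by the root of F. The steps were tested on simulated counts.

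The matrix genes and all lists were chosen with earlier results of these data known. The rule for names was: every matrix gene, up to 4 called genes of each pathway list by p, and the leading and absent markers of each cell type. Of the genes that rule names, 1 is counted and not reported here. Positional neighbours were chosen after values were seen. Alternatives were RLE scaling, DESeq2 1.42.0, limma-voom (limma 3.58.1), no filter, at least 5 CPM in 2 libraries, the replicate number as a block, and each library left out.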

Additional observations from a re-analysis of the deposited data

How the results depend on the processing

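Lama5, Ltbp2, Agrn and Col11a2 were called in all 12 fits. Col1a1 was called in 7 and Col1a2 in 6, and none of these 6 genes changed sign. The fit with at least 5 CPM in 2 libraries did not test Col1a1, so it could not be called there. Of genes called in a fit without 1 KO library only, Col5a1 had log2 fold changes of 0.32 without KO replicate 1 and -0.15 without the other, and Fn1 of -0.04 and 0.64. The number of matrix genes called higher was 4 to 16 over the fits that left out 1 library, with 16 without KO replicate 1, and 4 without a filter on low counts, where Col1a1 and Col1a2 missed the threshold among 21077 genes. Over those fits the genes called numbered 210 to 1709 higher and 31 to 1247 lower, and the pathway genes called numbered 4 to 29 higher and 1 to 6 lower. Fits without a KO replicate leave a lone KO library that is assumed to vary like the controls, and their counts rest on that assumption. Counts without any 1 control were lower than with all libraries, from 210 to 339 genes higher. Without a filter 235 genes were called higher and 53 lower, and 4 pathway genes higher. Pathway genes called higher numbered 3 with DESeq2, with 3 lower, and 3 with at least 5 CPM in 2 libraries, where 62 of them were tested. DESeq2 gave no adjusted p for 1261 genes, among them 3 matrix genes and 4 of the pathway genes named; the cause of its other differences was not tested.

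The replicate number as a block gave 702 genes higher and 171 lower, 7 matrix genes higher, with Lamb1 added, and 10 pathway genes higher. Same-numbered libraries deviated together by a correlation of 0.01 for number 1 and 0.06 for number 2. With 2 KO libraries the deviations of 1 mirror those of the other. These values therefore cannot show whether same-numbered libraries share more than a number.

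With cuts at 2 and 20 CPM the top band held 5 matrix genes, and with cuts at 0.5 and 5 CPM it held 17 and the bottom band 5, by construction. Without its most abundant member the mesenchymal list's log2 ratio of KO over control was -0.06 in place of 0.98, and that of the macrophage list -0.60 in place of -0.46. Levels near or under 1 CPM rest on few counts and limit what the depth can show.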

Other observations

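The called matrix genes differed in how their surroundings behaved, a look taken after their values were seen. Within 0.5 megabases of Col11a2, 11 of 39 other genes fitted were called higher in KO and 0 lower by edgeR, among them the antigen presentation genes Tap1, Tap2 and Tapbp. Around Agrn, 4 of 23 were called higher, including Isg15, and 2 lower. Around Lama5, Ogfr and Col9a3 were called higher of 17. Around Ltbp2, Npc2 and D030025P21Rik were called higher of 23. Around Col1a1, 0 of 15 were called higher and 1 lower, and around Col1a2 0 of 8 were called. Over all genes fitted, 5.15% were called higher and 1.83% lower.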
